A study of Mus musculus with 31 samples.

Results

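The 53 genes described here are those of the deposited normalized table whose symbol is Gpr followed by a number and at most a letter and a digit, taken from 55421 genes with mouse identifiers in the count table. The symbol is given to seven-pass membrane proteins that had no known ligand when they were named. G protein-coupled receptors sit in the plasma membrane, bind a signal on the outside and switch on a G protein inside, which opens or closes channels or changes cyclic AMP or calcium. An orphan is such a receptor whose natural ligand is not established. Several of these genes now have reported ligands, and 8 of them (Gpr89, Gpr107, Gpr108, Gpr137, Gpr137b, Gpr137c, Gpr155 and Gpr180) encode membrane proteins that are not classical receptors, so the name covers more than orphan receptors. In the brain many orphans are made in small groups of neurons, whereas others are best known from glia or blood vessels.

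The cells were 18 lateral olivocochlear (LOC) neurons, recorded in the lateral superior olive, and 13 medial olivocochlear (MOC) neurons, recorded in the ventral nucleus of the trapezoid body. Both are cholinergic brainstem neurons with axons to the cochlea, where LOC neurons contact mainly auditory nerve fibres and MOC neurons contact outer hair cells. All came from acute brainstem slices of ChAT-IRES-Cre; tdTomato mice, per the series description, in which Cre made at the choline acetyltransferase gene turns on a red protein. Genotype is labelled wild-type and treatment RNA-seq after patch clamp, the same in both groups, and no age or animal is given. The red label marks any cell with a history of Chat expression, so the place of recording is what separates the groups. Each library is the RNA drawn from 1 recorded cell, read by Smart-seq2, which copies whole polyadenylated transcripts. As no animal is named, each group counts as 1 sample. There was no replicate to test against, and every SD is a spread between cells.

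Totals ran from 356412 to 1404896 counts in LOC cells and from 598028 to 2627174 in MOC cells. No pair of libraries held identical values. Fewer than 10 reads of the cholinergic genes Chat, Slc18a3 and Slc5a7 were found in 4 LOC and 5 MOC libraries, so their label is not borne out by their defining markers. The library MOC 8 had 0 such reads, 1689.7 counts per 1000000 (CPM) of Gad1 and 817 CPM of Slc6a5, markers of inhibitory neurons, and the highest summed level of microglial markers, 7733 CPM. Reads of oligodendrocyte, astrocyte and microglial markers were present in every library. Summed oligodendrocyte markers ran from 22.7 to 238537 CPM in LOC cells and from 363 to 123302 CPM in MOC cells. Astrocyte markers ran from 442 to 3308 CPM in LOC cells and from 107 to 2809 CPM in MOC cells. Microglial markers ran from 32.4 to 2027 CPM in LOC cells and from 40.7 to 7733 CPM in MOC cells, and 5 of their 10 genes met the size rule used for the comparison of the groups in MOC.

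Taken over all cells, most of these genes were rare. The level over all 31 cells ran from 0.430 CPM for Gpr171 to 310.0 CPM for Gpr37l1, with a median of 10.1 CPM, and 26 of the 53 genes lay below 10 CPM. Together they made up 1103 CPM in the summed LOC counts and 1292 CPM in the summed MOC counts. Gpr37l1 alone gave 26.3% of their reads in LOC and 25.6% in MOC. It was also the single member read in all 31 cells. A cell held reads of 14 to 40 members in LOC (median 27.5) and of 19 to 40 in MOC (median 29). With each cell thinned to 300000 counts these medians were 19.5 in LOC and 20 in MOC, so the groups were close in how many members a cell showed. Across the 31 cells the number of members read followed the number of all genes read (Spearman's rho 0.85) more than the total count (0.18). These are descriptions of cells that differ in depth and quality.

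Reads of a member were often concentrated in 1 cell. More than 50% of a member's reads came from a single cell for 22 members in LOC and for 29 in MOC. A sum over a group can thus rest on 1 library. Values by cell, or the share of the top cell, are given beside many of the sums below but not all. Another 23 genes with a symbol of the same form were in the count table but outside the normalized table. They had 0 to 18 reads over all 31 cells, with a median of 6, whereas the lowest member had 12.

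**Figure D1:**
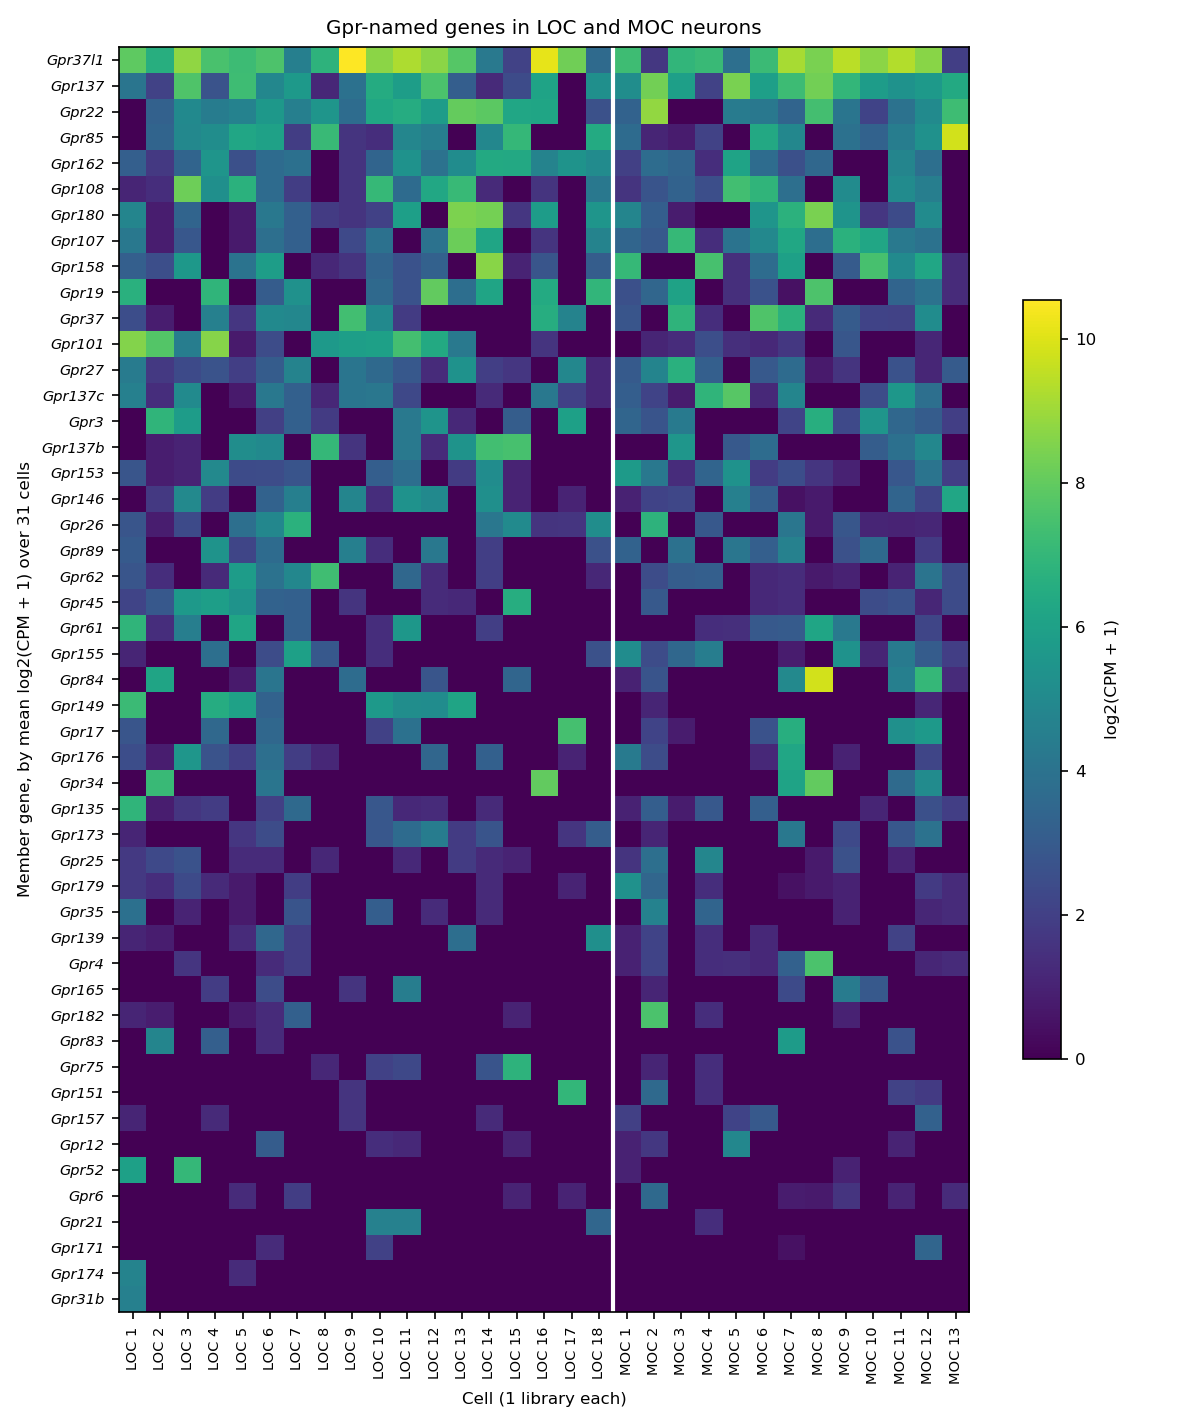
Level of 49 members in each cell as log2(CPM + 1), with LOC cells left of MOC cells and members ordered by their mean over the 31 cells. Gpr37l1 was read in all 31 cells, while many other rows vary widely between cells within both groups.

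To compare the groups, a gene was called measured when at least 25% of the cells of 1 group held a read. The size rule for a group asked for 3 things: a summed CPM no less than 2 times the other group's, a mean log2(CPM + 1) above the other group's by 1 or more, and a read in 25% or more of the group's own cells. Of the 53 members 47 were measured. Gpr101, Gpr149, Gpr162 and Gpr45 met the rule in LOC, which is 8.51% of the measured members, against 6.07% of all 17754 measured genes. Gpr137, Gpr155, Gpr4 and Gpr84 met it in MOC, again 8.51% of the measured members, against 5.67% of all measured genes. Both shares lay near the background and are no result about these genes as a set. The difference of means was above 0 for 22 measured members and below 0 for 25. Its median was -0.14 over the members and -0.07 over all measured genes.

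**Figure D2:**
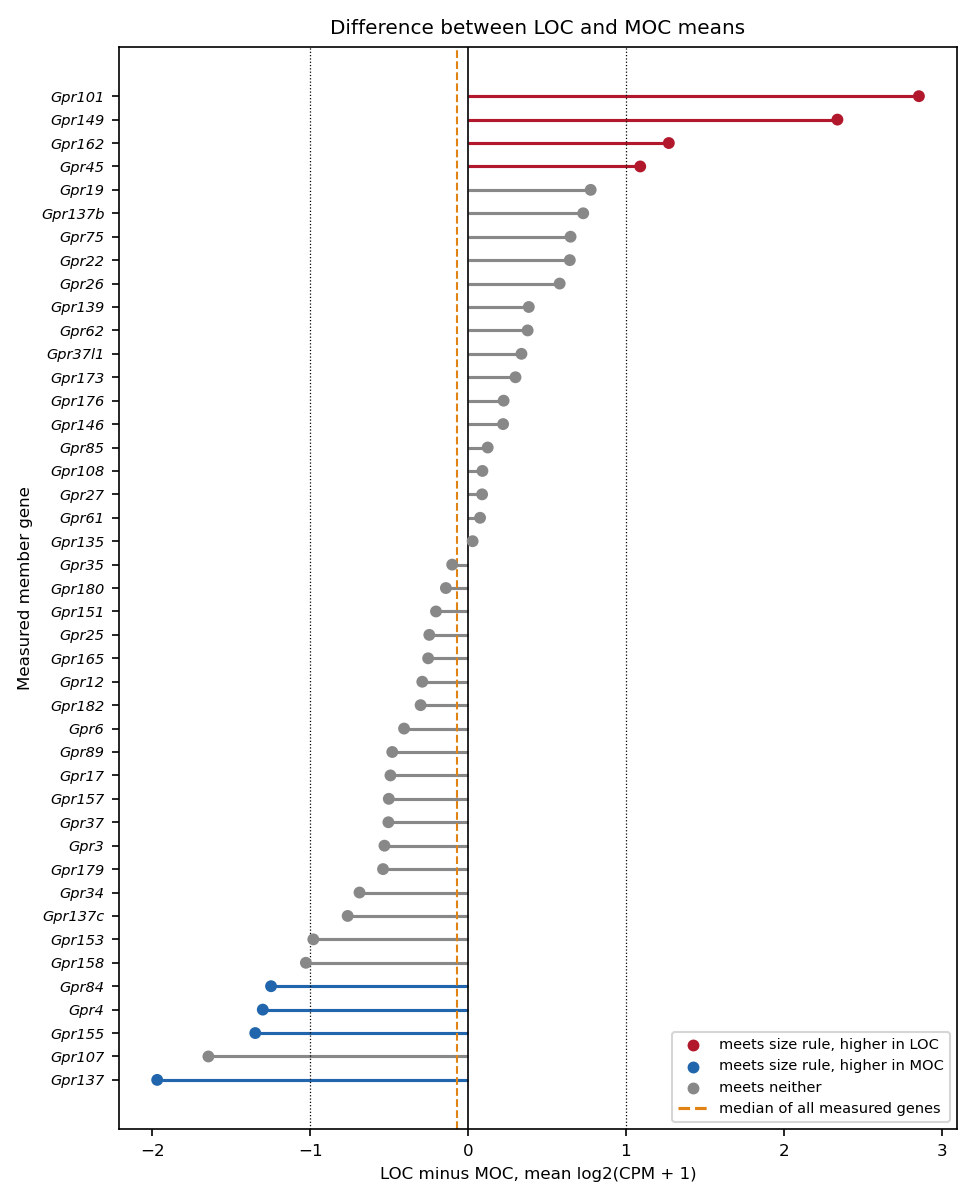
Difference of mean log2(CPM + 1), LOC minus MOC, for 43 of the 47 measured members, with those that met the size rule coloured by group, dotted lines at 1 and -1 and a dashed line at the median of all measured genes. The values run from 2.86 for Gpr101 to -1.97 for Gpr137, and 35 of those shown met the rule in neither direction.

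Gpr101 showed the widest difference. The receptor signals through the stimulatory G protein and raises cyclic AMP, and extra copies of the gene cause excess growth in people. It lies on the minus strand of X:57496668-57503757 (GRCm38, GENCODE M21) and overlaps no other annotated gene. Among LOC cells its level ran from 0 to 390.4 CPM with a median of 19.5 CPM, and 13 of 18 cells held a read. Among MOC cells it ran from 0 to 6.05 CPM with a median of 1.22 CPM, and 8 of 13 cells held a read. Cells with a read were thus 72.2% of LOC cells and 61.5% of MOC cells, and the groups differed in level more than in that share. With at least 5 reads asked for, 10 LOC and 2 MOC cells remained. LOC cells 4, 1, 2 and 11 were highest, with 390.4, 383, 209 and 166 CPM, and 5 LOC cells had no read, so the groups overlapped at the low end. The summed counts gave 85.01 CPM in LOC (95% Poisson interval 80.3 to 89.9) against 1.54 CPM in MOC (0.953 to 2.35), a ratio of 55.2 (35.9 to 89.5). These intervals, like all those given here, cover counting error only. LOC cells averaged a log2(CPM + 1) of 3.88 ± 3.28 (SD, n = 18) and MOC cells 1.02 ± 0.98 (n = 13), a difference of 2.86.

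Gpr149 was nearly absent from MOC cells. This orphan, known in mice from the ovary, where its loss raises fertility, lies on the minus strand of 3:62529077-62605140. Its level in LOC cells ran from 0 to 144 CPM with a median of 0, and 8 of 18 cells held a read, each of them at least 5. In MOC cells it had 2 reads in all, 1 each in cells 2 and 12, with a highest level of 1.22 CPM. The 8 LOC cells with a read lay between 8.86 and 144 CPM, above every MOC cell, and the other LOC cells were at 0. Summed levels were 29.8 CPM in LOC (27.0 to 32.8) against 0.147 CPM in MOC (0.0178 to 0.530). With 2 reads in the denominator the ratio of 203 has a wide counting interval, 55.9 to 1684. LOC cells averaged a log2(CPM + 1) of 2.51 ± 2.99 and MOC cells 0.17 ± 0.42, a difference of 2.34.

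Gpr101 and Gpr149 were read in partly the same LOC cells. With 5 reads as the minimum, 6 LOC cells held both, 4 held Gpr101 without Gpr149, 2 held Gpr149 without Gpr101 and 6 held neither. Spearman's rho of the levels was 0.56 over the 18 LOC cells, which share differences in depth and quality. The LOC cells 15, 18 and 8, which had far more of the peptide gene Calca than the rest (35892, 26921 and 18871 CPM, against at most 3027 CPM in any other LOC cell), had 0 reads of Gpr149. Their Gpr101 levels were 0, 0 and 51.2 CPM. This look at Calca was chosen after the values were seen and covers 3 cells.

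Gpr45 and Gpr162 met the rule in LOC by a smaller margin. Gpr45, an orphan of brain neurons, lies on the plus strand of 1:42952872-43035456. Its level ran from 0 to 92.9 CPM in LOC cells (median 1.75, 11 of 18 cells read) and from 0 to 6.69 CPM in MOC cells (median 1.22, 7 of 13 cells read). LOC cells 15, 4, 3 and 5 stood out with 92.9, 58.3, 51.3 and 41.3 CPM, while all other cells of both groups were at or under 8.86 CPM. Summed levels were 18.2 CPM in LOC (16.02 to 20.5) against 1.76 CPM in MOC (1.13 to 2.62), with a difference of means of 1.09. The rule was no longer met without any of those 4 LOC cells in turn (differences 0.83 to 0.90). Of the 6 LOC cells with at least 5 Gpr45 reads, 3 also had 5 Gpr101 reads and 3 had 5 Gpr149 reads. Cell 15, the highest, had 0 of both.

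Gpr162, an orphan related to Gpr153, lies on the minus strand of 6:124858444-124863983. It was the most evenly spread of the 4 genes higher in LOC, with a read in 17 of 18 LOC cells and 10 of 13 MOC cells. Levels ran from 0 to 83.7 CPM in LOC (median 14.3) and from 0 to 68.6 CPM in MOC (median 9.80), so the groups overlapped over nearly the whole range. Summed levels were 25.2 CPM in LOC (22.6 to 27.9) against 10.4 CPM in MOC (8.77 to 12.3), and the means differed by 1.27. With the 4 LOC and 5 MOC libraries poor in cholinergic reads left out, the difference was 0.62 and the rule was not met. Its relative Gpr153 ran the other way, with 5.75 CPM in LOC, 10.3 CPM in MOC and a difference of -0.98. Gpr153 fell short of both the ratio and the difference that the rule asked for. It met the rule in MOC with the deposited normalized values, after thinning and in the libraries with at least 10 cholinergic reads. It also did so without LOC 4, LOC 14 or MOC 7 in turn.

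**Figure D3:**
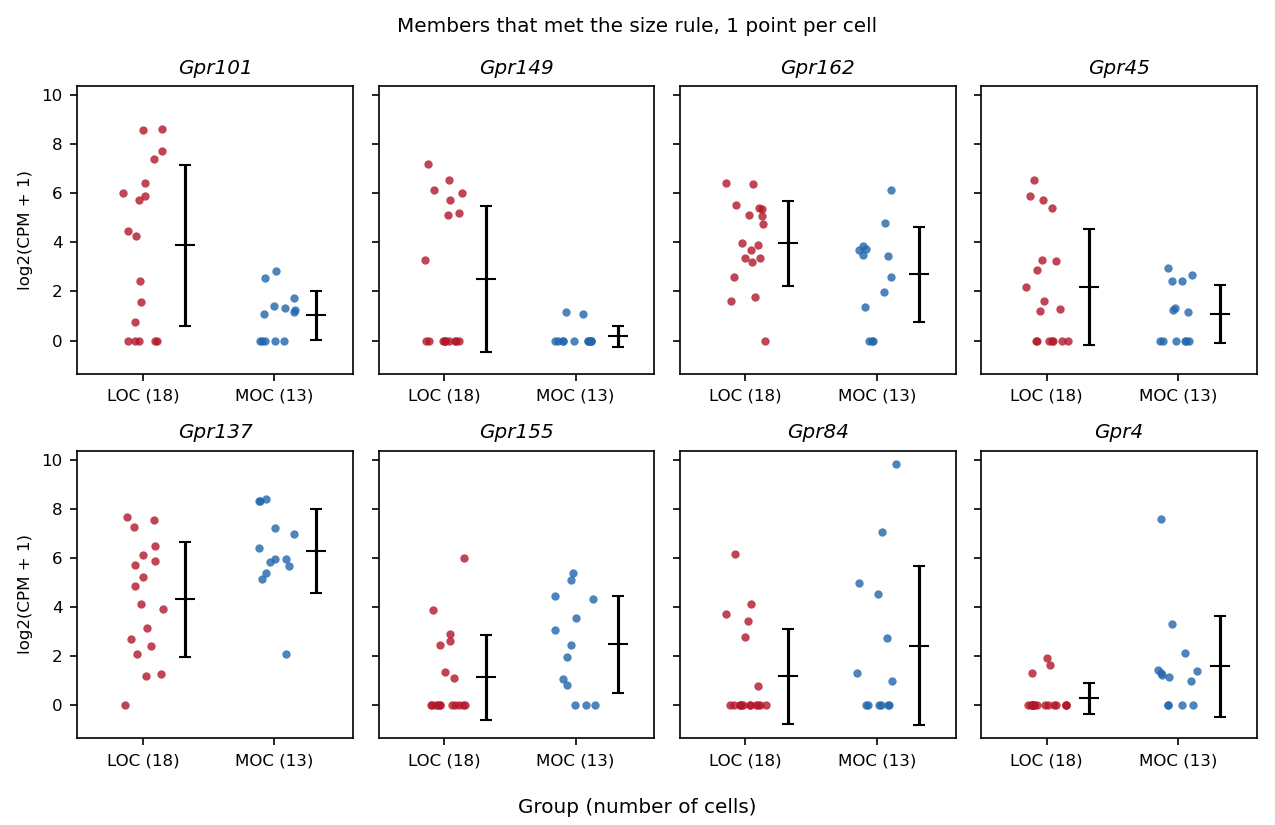
Level in each cell, as log2(CPM + 1), of the 8 members that met the size rule, LOC left of MOC in each panel, with a dash for the group mean and bars of 1 SD between cells. Gpr101 and Gpr149 are high in a subset of LOC cells and low in all MOC cells, and for Gpr4 and Gpr84 the cell MOC 8 is the highest point.

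The promoters of Gpr101 and Gpr45 are shown because both genes were higher in LOC and their windows can be read from the RefSeq promoter table. Each is the 250 bases before the RefSeq start (GRCm38.p6), 5′ to 3′ on the gene's strand, X:57503758-57504007 on the minus strand for Gpr101 and 1:42952622-42952871 on the plus strand for Gpr45. Capitals mark a GC box (GGGCGG or, on the other strand, CCGCCC), which the factor Sp1 binds.
Gpr101: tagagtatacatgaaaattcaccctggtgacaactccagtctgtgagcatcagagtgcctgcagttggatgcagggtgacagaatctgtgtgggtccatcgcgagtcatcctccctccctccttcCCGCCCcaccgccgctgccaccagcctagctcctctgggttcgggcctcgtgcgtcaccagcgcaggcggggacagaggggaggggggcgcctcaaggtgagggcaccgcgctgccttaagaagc
Gpr45: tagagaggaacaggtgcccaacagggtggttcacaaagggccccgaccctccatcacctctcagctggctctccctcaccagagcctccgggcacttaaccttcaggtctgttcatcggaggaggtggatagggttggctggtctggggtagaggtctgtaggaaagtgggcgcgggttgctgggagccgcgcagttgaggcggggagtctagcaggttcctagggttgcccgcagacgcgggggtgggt
The Gpr101 window held 1 GC box and the Gpr45 window 0, and G and C made up 62.4% and 62.8% of them, against a median of 52.4% over all RefSeq promoters. A GC box was found in 32.7% of the 32851 promoter entries, and in 21 of the 46 entries of the 35 members that had one. Neither window held the cyclic AMP response element TGACGTCA, found in 1.55% of all entries, or the TATA box TATAAA, found in 12.4%. Both strands of the 250 bases were searched in every entry, and the motifs were chosen after the sequences were seen. A match describes these letters and is no evidence of binding.

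Of the genes higher in MOC, Gpr137 was read in the most cells. Its protein is a seven-pass protein of the lysosome, studied in human cells for its part in the control of growth signalling by mTORC1. The gene lies on the minus strand of 19:6938057-6942480, where its exons overlap those of Bad on the opposite strand. The libraries keep no strand, so reads of the overlap cannot be assigned to either gene. Levels ran from 3.21 to 339 CPM in MOC cells, all of which held a read, while in LOC cells they ran from 0 to 199 CPM, with a read in 17 of 18. The median was 22.1 CPM in LOC against 61.7 CPM in MOC, and the ranges overlapped over most of their length. Summed levels were 54.2 CPM in LOC (50.5 to 58.2) against 132 CPM in MOC (126 to 138). LOC cells averaged a log2(CPM + 1) of 4.31 ± 2.35 and MOC cells 6.28 ± 1.70, a difference of -1.97.

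Gpr155 encodes a lysosomal protein that senses cholesterol in human cells, and lies on the minus strand of 2:73341506-73386572. It had 0 to 61.7 CPM in LOC cells (median 0, 7 of 18 read) and 0 to 40.3 CPM in MOC cells (median 4.46, 10 of 13 read). The highest single value was in LOC cell 7, which held 47.8% of the LOC reads. Summed levels were 3.23 CPM in LOC (2.36 to 4.30; 1.73 CPM without cell 7) against 9.83 CPM in MOC (8.23 to 11.6), and the means differed by -1.35.

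The other proteins of inner membranes did not meet the rule in the main comparison. Gpr107, a Golgi protein, came closest. It ran from 0 to 288 CPM in LOC cells (median 5.17) and from 0 to 134 CPM in MOC cells (median 15.05). Its means differed by -1.65, wider than those of Gpr155, but its summed levels of 24.5 CPM in LOC against 47.6 CPM in MOC gave a ratio of 0.516. LOC cell 13 held 63.4% of the LOC reads, and without it the LOC sum was 9.49 CPM and the rule was met. Gpr108, its relative, ran from 0 to 294 CPM in LOC cells (median 7.28) and from 0 to 162 CPM in MOC cells (median 9.05). It had summed levels of 51.6 CPM in LOC against 23.7 CPM in MOC but a difference of means of 0.09. The relatives of Gpr137 differed in direction, Gpr137b with 34.9 CPM in LOC against 8.58 CPM in MOC (difference 0.73) and Gpr137c with 7.43 CPM in LOC against 25.6 CPM in MOC (-0.76). Gpr180 ran from 0 to 354 CPM in LOC cells (median 5.78) and from 0 to 337 CPM in MOC cells (median 7.81), with nearly equal means. Its sums were 46.6 CPM in LOC against 67.2 CPM in MOC (difference of means -0.14). MOC 8 held 53.3% of the MOC reads, and without it the MOC sum was 35.1 CPM. LOC 13 held 41.1% of the LOC reads, and without it the LOC sum was 29.0 CPM. Gpr89, a pH regulator of the Golgi, had 5.61 CPM in LOC against 9.02 CPM in MOC (-0.48). Of these 8 genes 2 met the rule in MOC and 0 in LOC, beside 5.67% of all measured genes in MOC and 6.07% in LOC, and their median difference was -0.62 against -0.07 for all measured genes.

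Gpr4 and Gpr84 met the rule in MOC, and both calls rested on MOC 8, the library without cholinergic reads. Gpr84, a receptor for medium-chain fatty acids made by activated microglia and other myeloid cells, had 0 to 70.3 CPM in LOC cells (median 0, 6 of 18 read) and 0 to 913 CPM in MOC cells (median 0.985, 7 of 13 read). MOC 8 at 913 CPM and MOC 12 at 130.5 CPM were the highest. Summed levels were 8.35 CPM in LOC (6.91 to 9.99) against 113 CPM in MOC (107 to 118), with 86.1% of the MOC reads in MOC 8. Without MOC 8 the MOC sum was 17.6 CPM, the difference of means was -0.63 instead of -1.25, and the rule was not met. The LOC sum also rested on 1 cell and was 2.38 CPM without LOC 2. Across the 31 cells the level of Gpr84 went with the summed microglial markers (Spearman's rho 0.59), and 86.7% of its reads lay in the 3 libraries richest in those markers, MOC 8, MOC 12 and LOC 9. Whether reads from microglia account for the difference was not tested. Without these 3 libraries the difference was -0.30.

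Gpr4, which senses protons and is best known from blood vessel cells, had 0 to 2.81 CPM in LOC cells (3 of 18 read) and 0 to 188 CPM in MOC cells (9 of 13 read). All MOC cells other than MOC 8 were at or under 8.75 CPM. Summed levels were 0.281 CPM in LOC (0.0764 to 0.718) against 22.4 CPM in MOC (19.9 to 25.02), or 2.63 CPM in MOC without MOC 8. The difference of means was -1.30 with MOC 8 and -0.80 without it, when the rule was not met. Spearman's rho with the summed vascular markers was 0.44 over the 31 cells. Their part in the result was not tested.

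Among the members best known from glia, Gpr37l1 was the most abundant of all. Per kilobase of merged exon, the scale on which levels can be compared between genes, Gpr37l1 had 137 CPM per kb over all cells. Gpr84 (34.4), Gpr180 (30.2), Gpr137 (27.2), Gpr34 (15.5), Gpr108 (13.3) and Gpr22 (13.1) CPM per kb followed. Of these, the Gpr84 value rests on MOC 8, which also held 53.3% of the MOC reads of Gpr180 and 63.3% of those of Gpr34. Gpr37l1, an astrocyte receptor for which prosaposin has been reported as a ligand, ran from 3.24 to 1488 CPM in LOC cells (median 204) and from 2.23 to 707 CPM in MOC cells (median 153). Summed levels were 289.7 CPM in LOC (281 to 299) against 331 CPM in MOC (322 to 341), and the means were 7.24 ± 2.28 in LOC and 6.91 ± 2.70 in MOC. The groups did not differ by the rule, and Gpr37l1 was the top member in 8 LOC and 6 MOC cells. Its level went with the astrocyte markers across cells (Spearman's rho 0.59, n = 31), and how much of it came from astrocytes was not tested.

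Gpr37, its relative, is made by oligodendrocytes and some neurons and is a substrate of parkin. It ran from 0 to 161 CPM in LOC cells (median 2.37) and from 0 to 197 CPM in MOC cells (median 3.31), with summed levels of 16.1 CPM in LOC against 46.8 CPM in MOC and a difference of means of -0.50. In the libraries with at least 10 cholinergic reads, Gpr37 met the rule in MOC. Its level over all cells went with the oligodendrocyte markers (rho 0.67) and the astrocyte markers (0.64). Gpr34, a microglial receptor for lysophosphatidylserine, was at 0 in most cells. It was read in LOC cells 16, 2 and 6 at 259.9, 139.7 and 16.2 CPM and in MOC cells 8, 7, 12 and 11 at 257, 67.8, 32.9 and 11.7 CPM, and its rho with the microglial markers was 0.62. Summed Gpr34 was 22.3 CPM in LOC against 43.1 CPM in MOC, a difference of means of -0.69, and LOC 2 and MOC 8 gave 55.0% and 63.3% of the reads of their groups. Gpr17, which times the maturation of oligodendrocyte precursors, was read in 6 LOC and 6 MOC cells. It reached 172 CPM in LOC cell 17 and 97.8 CPM in MOC cell 7, which held 83.2% and 75.1% of the reads of their groups. Its rho was 0.13 with the summed precursor markers Pdgfra, Cspg4, Vcan and Neu4, and 0.39 with the oligodendrocyte markers. Gpr62, a receptor of myelinating oligodendrocytes, had 16.9 CPM in LOC, 51.0% of it in LOC cell 8, and 3.15 CPM in MOC. Its rho with the oligodendrocyte markers was 0.04, so it did not follow them. Of the 6 members on the glial list 1, Gpr84, met the rule in MOC and 0 in LOC in the main comparison. The shares of all measured genes were 5.67% in MOC and 6.07% in LOC. The median difference of the 6 was -0.50. Of the genes higher in LOC, Gpr101, Gpr149 and Gpr45 had correlations between -0.34 and 0.15 with the microglial, oligodendrocyte, astrocyte and vascular markers. Those of Gpr162 were -0.16, -0.28, -0.40 and -0.38 in the same order.

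**Figure D4:**
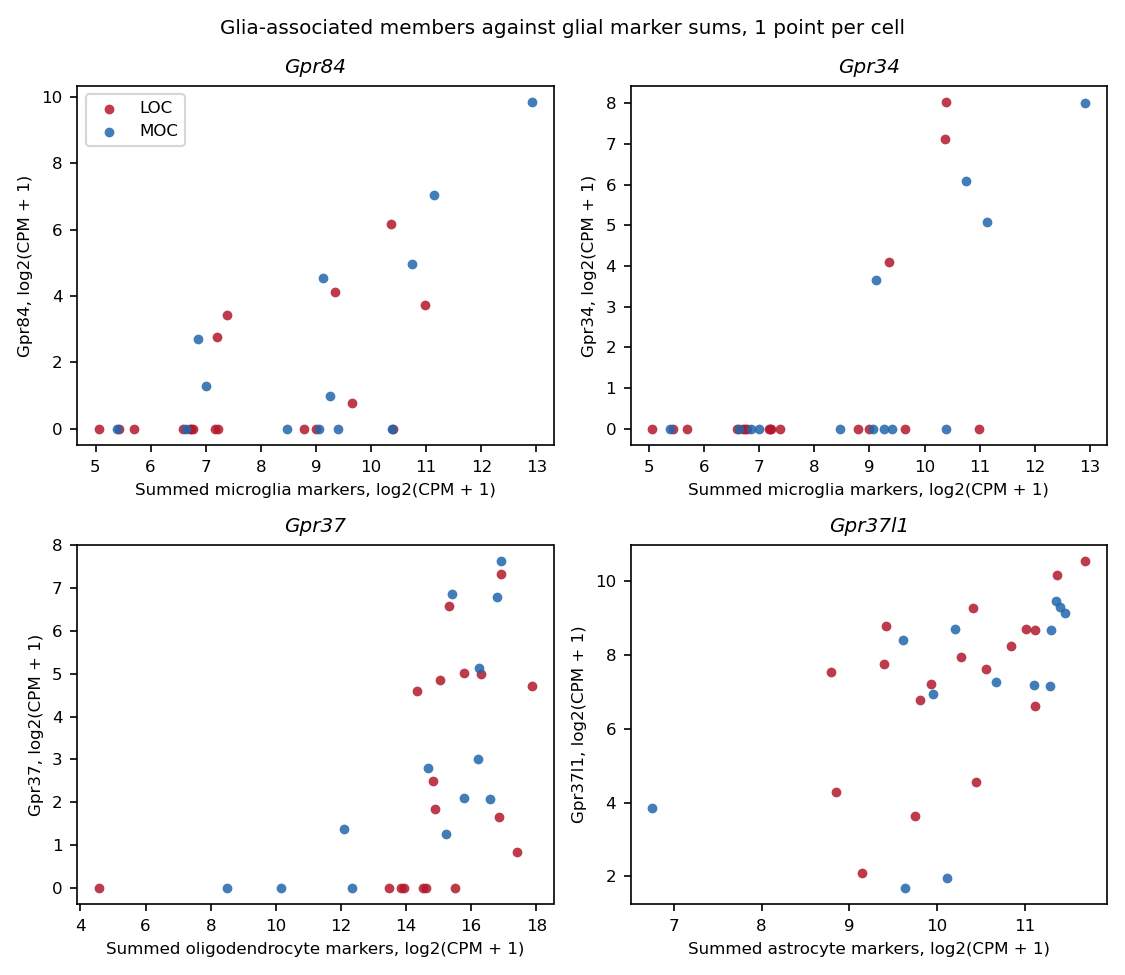
Level of glial members in each cell against the summed level of the matching cell type markers, both as log2(CPM + 1), with LOC and MOC cells in separate colours. Gpr84 and Gpr34 lie at 0 in most cells, Gpr84 is highest in MOC 8 at 913 CPM and Gpr34 in LOC 16 and MOC 8 at 259.9 and 257 CPM, and Gpr37l1 and Gpr37 rise with their markers across both groups.

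Receptors that signal without an added ligand, and the highly conserved brain orphans, met the rule in neither direction. Gpr3, Gpr6 and Gpr12 raise cyclic AMP on their own. Gpr3 had 0 to 118 CPM in LOC cells (median 1.93, sum 22.3) and 0 to 96.6 CPM in MOC cells (median 5.58, sum 18.4). LOC 2 held 46.5% of its LOC reads and MOC 8 held 55.8% of its MOC reads. Gpr6 reached at most 2.81 CPM in LOC against 11.2 CPM in MOC cells, and Gpr12 at most 7.38 CPM in LOC against 28.4 CPM in MOC cells. These 3 differed by -0.53, -0.41 and -0.29 and met no rule. The group of Gpr27, Gpr85 and Gpr173, whose proteins are highly conserved among vertebrates, met no rule over all cells either, with differences of 0.09, 0.12 and 0.30. Gpr85 was the most abundant of them, from 0 to 141 CPM in LOC cells (median 24.7) and from 0 to 908 CPM in MOC cells (median 11.8). Its summed level of 40.3 CPM in LOC against 62.8 CPM in MOC hides that MOC 13 held 73.7% of the MOC reads, and without that cell the MOC sum was 17.4 CPM. In the libraries with at least 10 cholinergic reads, which leave out MOC 13, its sums were 45.3 CPM in LOC against 19.5 CPM in MOC, the difference was 1.01 and it met the rule in LOC. Gpr27 was read in 16 LOC and 11 MOC cells at medians of 4.80 CPM in LOC against 6.70 CPM in MOC. Gpr173 ran from 0 to 20.5 CPM in LOC cells and from 0 to 17.9 CPM in MOC cells. Its summed levels were 3.37 CPM in LOC against 5.13 CPM in MOC. MOC 7 held 67.1% of the MOC reads, and without it the MOC sum was 2.09 CPM.

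Gpr22 and Gpr19 were abundant neuronal orphans without a call. Gpr22, known from brain and heart, ran from 0 to 267 CPM in LOC cells (median 38.1, 16 of 18 read) and from 0 to 461 CPM in MOC cells (median 16.1, 11 of 13 read), with a difference of 0.64. Its sums of 56.8 CPM in LOC against 64.3 CPM in MOC go the other way, and 47.1% of the MOC reads lay in MOC 2. Gpr19 ran from 0 to 259 CPM in LOC cells (median 9.18) and from 0 to 192 CPM in MOC cells (median 4.92), with a difference of 0.78. Its MOC sum was 29.9 CPM, and 10.7 CPM without MOC 8, against 40.7 CPM in LOC. Without MOC 8 the difference was 1.20 and Gpr19 met the rule in LOC.

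Class C receptors, the family of the metabotropic glutamate receptors, include Gpr158 and Gpr179, neither of which met the rule in the main comparison. Gpr158, which holds the RGS7 complex at the membrane and has been reported as a glycine receptor, ran from 0 to 406 CPM in LOC cells (median 5.56) and from 0 to 178 CPM in MOC cells (median 12.1). LOC cell 14 held 66.1% of the LOC reads. Summed levels were 30.4 CPM in LOC, or 10.8 CPM without that cell, and 49.6 CPM in MOC, and the means differed by -1.03. Without LOC cell 14 Gpr158 met the rule in MOC. It also did so with the deposited normalized values and in the libraries with at least 10 cholinergic reads. Gpr179, an anchor of RGS proteins in the retina, had summed levels of 0.912 CPM in LOC against 4.11 CPM in MOC, with 71.4% of the MOC reads in MOC 1.

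Several further members were high in a single LOC cell. Gpr75 had 91.2% of its LOC reads in LOC 15, Gpr151, a marker of the habenula, 99.2% in LOC 17, and Gpr135 84.9% in LOC 1. Among MOC cells Gpr182, an endothelial receptor, had 98.8% of its reads in MOC 2 and Gpr176 87.6% in MOC 7. The group sum of each of these rests on 1 cell. Among the other measured members, Gpr25, Gpr26, Gpr35, Gpr61, Gpr139, Gpr146, Gpr157 and Gpr165 met no rule. Their summed levels ran from 0.281 to 18.8 CPM in LOC and from 0.660 to 11.6 CPM in MOC, with differences from -0.50 to 0.58. The 6 members read in too few cells to be measured were Gpr21, Gpr31b, Gpr52, Gpr83, Gpr171 and Gpr174. Gpr52, a receptor of striatal neurons that raises cyclic AMP, had 178 reads in 2 LOC cells and 2 reads in MOC. Gpr174 and Gpr31b had 24 and 20 reads in LOC and 0 in MOC, where a count of 0 allows up to 0.220 CPM at 3 counts over the group.

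The partners through which such receptors act differed in few genes. Of 13 alpha subunits of G proteins, Gnaz and Gnaq met the rule in LOC and Gnal and Gna12 in MOC, with a median difference of 0.20 over the list. Gnaz, an inhibitory-type subunit of neurons, had summed levels of 91.0 CPM in LOC against 36.6 CPM in MOC, read in 17 LOC and 12 MOC cells. Gnaq, which couples receptors to phospholipase C, had 98.3 CPM in LOC against 49.1 CPM in MOC, a ratio that just reached 2 and fell below it in 20 of the 38 alternatives. Gnal, a stimulatory subunit, had 36.7 CPM in LOC against 96.4 CPM in MOC, or 64.4 CPM in MOC without MOC 8, when the rule was not met. Gna12 had 21.7 CPM in LOC against 104 CPM in MOC, or 42.3 CPM in MOC without MOC 2, when the rule was not met. The Gnal call was lost in 5 and the Gna12 call in 8 of the 38 alternatives.

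Among 14 beta and gamma subunits, Gng7 met the rule in LOC (36.8 CPM in LOC, 8.43 CPM in MOC) and Gng11 in MOC (23.8 CPM in LOC, 62.8 CPM in MOC), with a list median of 0.09. The Gng7 call was lost in 15 of the 38 alternatives, among them TMM sizes and leaving out LOC cell 5, where the LOC sum was 23.7 CPM. The Gng11 call was lost in 5, among them leaving out MOC 7, where the MOC sum was 47.6 CPM. Of 7 kinases and arrestins that switch receptors off, Grk3 met the rule in LOC, with 47.7 CPM in LOC against 7.99 CPM in MOC, read in 16 LOC and 10 MOC cells. The median of that list was 0.27. Grk3 and Gnaz met the rule under all 38 alternatives. None of the 7 genes of the RGS7 family complex met it (median 0.22). Of 9 adenylyl cyclases, Adcy9 met it in MOC with 4.28 CPM in LOC against 20.5 CPM in MOC, or 7.96 CPM without MOC 13, when it no longer did (list median -0.46). Of 4 measured genes tied to reported receptor ligands, Cyp7b1, an enzyme of oxysterol breakdown, met it in MOC (list median -0.18). It had 2.81 CPM in LOC against 11.6 CPM in MOC, or 3.82 CPM without MOC 3, when the rule was no longer met. The receptors of those ligands need not be among the members, and no link to a member was tested. The Cyp7b1 call was lost in 21 of the 38 alternatives and that of Adcy9 in 7. These counts are to be read against the 6.07% and 5.67% of all measured genes.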

How the data were processed

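Raw counts per gene for each cell were deposited by the authors, together with a smaller table of normalized signal values that its name describes as CPM with TMM. In all 31 columns the deposited signal was the count times 1 constant, within 0.1%. STAR 2.5.2, bcl2fastq, limma, edgeR and DESeq2, and the builds mm10 and GRCm38, are named without roles per the submitters' processing notes. The way reads of overlapping genes were counted was not given in the sources used here. Of all counts 0.0173% fell on 19 added sequences and were left out.

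CPM was computed from the counts with the total over mouse genes, and differences are LOC minus MOC of mean log2(CPM + 1), which understates low genes. Summed counts have exact 95% Poisson intervals, and ratios have exact binomial ones. Reads carry no molecular identifiers. No test was run and no p-value was made from cells. In the size rule a group at fewer than 3 counts was set to 3, while printed ratios use the counts found. Coordinates, exon lengths and overlaps came from GENCODE M21, which held 52 of the 53 members (Gpr52 was not matched), and promoters from RefSeq. The 19 members counted as having exons that overlap another gene include Gpr52, whose exons could not be checked. They also include Gpr17 (Lims2), Gpr62 (Pcbp4), Gpr75 (Asb3), Gpr19, Gpr89, Gpr173, Gpr176 and Gpr182. For these, as for Gpr137, reads of the overlap cannot be assigned to either gene. edgeR 4.0.16 (R 4.3.3) gave TMM sizes for an alternative.

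Values by cell were given for members that met the size rule, the 12 most abundant members and the members of 5 family and glial lists. Others named for reads in 1 cell, and the promoter motifs, were chosen after their values were seen. The members and lists were chosen with earlier results of these data known. Some members are counted in totals but not reported here by name.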

Additional observations from a re-analysis of the deposited data

How the results depend on the processing

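Gpr101, Gpr149 and Gpr137 met the size rule under all 38 alternatives, which were 7 other settings and leaving out each of the 31 cells. The other 5 calls did not. With a pseudocount of 10 in place of 1, 2 members still passed in LOC, 4.26% of those measured against 2.08% of all genes. In MOC 1 passed, 2.13% against 1.18%. The median difference of the members was then -0.035. Thinned to 300000 counts per cell, the median was -0.0012, and the median number of members read per cell was 19.5 in LOC and 20 in MOC. With 5 reads as the minimum, it was 13.5 in LOC and 16 in MOC. In the 14 LOC and 8 MOC libraries with at least 10 cholinergic reads, 8 members met the rule in MOC and 4 in LOC. The shares were 16.7% of those measured against 6.90% of all genes in MOC, and 8.33% against 8.47% in LOC. The 8 in MOC were Gpr37, Gpr89, Gpr107, Gpr137, Gpr137c, Gpr153, Gpr155 and Gpr158, so Gpr4 and Gpr84 were lost there. The 4 in LOC were Gpr45, Gpr85, Gpr101 and Gpr149. Leaving out 1 cell at a time, 3 to 5 members met it in LOC and 4 to 7 in MOC, and the median ran from -0.23 to -0.013. The 7 in MOC, without LOC 14, were 15.2% of measured members against 6.05% of all measured genes. The 5 in LOC, without MOC 2, were 10.6% against 6.16%. Without LOC 3, the 3 in LOC were 6.38% against 5.90% and the 4 in MOC 8.51% against 5.91%. The cause of these shifts was not tested. Gpr162 was lost with pseudocount 10, the deposited values or cholinergic-rich libraries alone. Gpr45 was also lost after thinning (0.99) and without any of MOC 1, 3, 4, 5, 8 or 9, where the difference fell just short of 1. Gpr155 was lost with pseudocount 10 (-0.47), and Gpr84 without MOC 12 (-0.86). Gpr107, outside the rule in the main setting, met it in MOC under 12 alternatives. All 1026 differences of 27 named members moved by less than 1 SD between cells, which is wide. Among the members that met the rule in the main setting, 0 changed sign. Some named members outside the rule did change sign. Leaving out 1 cell, the difference of Gpr108 ran from -0.19 to 0.43 and that of Gpr85 from -0.17 to 0.65. No paired analysis was possible because no test was made and the cell numbers in the labels pair nothing. Depth limits members under 10 CPM, where few cells hold more than a few reads.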
